A study of Mus musculus with 7 samples.

Results

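The genes described here were 7 cell-surface or secreted ligands that set the threshold of T cell and NK cell responses, chosen by symbol among the 55357 features of the count matrices. They were Cd274 (PD-L1, ENSMUSG00000016496), Pdcd1lg2 (PD-L2, ENSMUSG00000016498), Cd80 (ENSMUSG00000075122), Cd86 (ENSMUSG00000022901), Pvr (CD155, ENSMUSG00000040511), Nectin2 (CD112, ENSMUSG00000062300) and Lgals9 (galectin-9, ENSMUSG00000001123). The study profiled 7 mouse liver samples, labelled as hepatocellular carcinoma tissue, by droplet single-cell RNA sequencing of 3′ ends (10x Genomics). Plasmids for the oncogenes Nras and C-myc were given in all 7 cases by hydrodynamic tail vein injection, in which a large volume pushed quickly into the blood carries naked DNA into hepatocytes. The 4 IL-2/CD25 samples, called treated below, had an IL-2/CD25 plasmid in addition, named for interleukin-2, a growth factor of T cells, and for CD25, part of the interleukin-2 receptor. The 3 Control samples lacked it. Tissue was taken 2 weeks after injection in both groups. The labels give no strain, age or sex and do not say whether each sample was a separate animal, so the p-values below measure the spread between these samples.

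PD-L1 and PD-L2 are ligands of PD-1 (Pdcd1), a receptor that dampens activated T cells. CD80 and CD86, the B7 molecules of antigen-presenting cells, bind CD28 to costimulate T cells and CTLA-4 (Ctla4) to restrain them. CD155 and CD112 are nectin-family adhesion proteins that bind the activating receptor CD226 and the inhibitory receptors TIGIT and, for CD155, CD96 on T and NK cells, while galectin-9 is a sugar-binding protein for which TIM-3 (Havcr2) is a described receptor. Dendritic cells that mature on taking up antigen raise CCR7 and the B7 ligands together, and interferon gamma and the NF-kB pathway are known inducers of Cd274.

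Cells were named by marker gates, described under the processing. The controls held 76438139 to 181755269 UMIs (unique molecular identifiers, the counted RNA molecules) per sample and the treated samples 37653600 to 47881379, and 57739 cells were kept. All levels are the gene's UMIs per 1000000 UMIs of the same cell type and sample (CPM), given as mean ± SD over 3 control and 4 treated samples. Keratin-positive cells with Cdkn2a, a cell-cycle inhibitor gene induced by oncogenes, are called tumour-like; their pooled control cells held 544 CPM of Cdkn2a, 3104 of Krt18, 2236 of Myc and 3305 of Nras. This split by Cdkn2a was chosen after values were seen. There were 3065 such cells in the controls (577, 377 and 2111 per sample) and 5 in the treated samples, all in treated sample 1, so no ligand could be compared between groups in tumour-like cells. Cells in no type were those below every gate (16.4% in controls, 4.44% in treated samples) and those with markers of 2 types (18.3% and 10.1%). Free RNA, estimated from the markers of other cell types, came to 18.0 to 37.3% of UMIs in tumour-like cells, 6.3 to 25.1% in the other tested types of the controls and 3.5 to 17.3% in those of the treated samples. Libraries shared 14 to 37 cell barcodes pairwise.

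The sequences just before the start sites of 3 of the ligands are shown because Cd274 and Pdcd1lg2 are neighbours on one chromosome, with starts 43481 bases apart, yet moved differently below, and because Lgals9 had a pattern across cells unlike that of the other 6 genes. Each line holds the 250 bases before the start, 5′ to 3′ on the gene's strand, from RefSeq on GRCm38.p6, and capitals mark a motif match. RefSeq windows were matched for 5 of the 7 genes. The build behind the deposited counts was not given in the sources used here.
Cd274, chr19:29367188-29367437, plus strand: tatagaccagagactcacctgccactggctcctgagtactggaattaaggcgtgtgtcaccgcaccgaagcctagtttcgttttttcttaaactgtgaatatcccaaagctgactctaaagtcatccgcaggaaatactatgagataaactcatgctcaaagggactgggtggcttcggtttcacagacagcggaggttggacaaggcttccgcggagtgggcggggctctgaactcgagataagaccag
Pdcd1lg2, chr19:29410669-29410918, plus strand: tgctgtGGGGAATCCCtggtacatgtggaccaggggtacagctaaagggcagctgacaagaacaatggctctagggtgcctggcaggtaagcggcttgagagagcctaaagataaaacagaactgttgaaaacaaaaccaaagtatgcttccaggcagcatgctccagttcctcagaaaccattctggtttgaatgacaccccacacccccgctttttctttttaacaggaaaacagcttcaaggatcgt
Lgals9, chr11:78984925-78985174, minus strand: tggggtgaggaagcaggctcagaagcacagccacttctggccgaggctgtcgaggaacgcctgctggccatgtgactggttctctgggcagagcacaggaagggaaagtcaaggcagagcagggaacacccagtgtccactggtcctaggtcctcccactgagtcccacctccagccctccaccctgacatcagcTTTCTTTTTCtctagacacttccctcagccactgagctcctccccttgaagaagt
The windows were searched on both strands for the GAS element (TTCNNNGAA), the interferon-response repeat (GAAA, any 2 bases, GAAA) and the NF-kB site (kappaB consensus). The Pdcd1lg2 window held 1 kappaB match, 244 to 235 bases before the start. The Lgals9 window held 1 interferon-response repeat on the opposite strand, 55 to 46 bases before the start. The Cd274 window held none of the 3 letter patterns within these 250 bases. Across 32841 windows of this length, GAS occurred in 7.02%, the repeat in 2.98% and kappaB in 5.93%, and a match is a description of letters only.

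Mature dendritic cells (Ccr7, Fscn1 and Ccl22 among their markers) had the highest mean level of 6 of the 7 ligands in the controls among 12 types compared (11 immune types and tumour-like cells), and Lgals9 was lowest there. Cd274 in mature dendritic cells stood at 259, 232 and 271 CPM in the 3 controls, above all samples of the next type, C1q macrophages (84 to 130.0 CPM). Control Pvr ran in the order mature dendritic cells (98 ± 21.9 CPM), tumour-like cells (47 ± 0.453 CPM), then the other 10 types, with no overlap of samples between these places. Of the immune types, Lgals9 was highest in C1q macrophages in both groups (128 ± 17.9 CPM in controls and 122 ± 10.9 CPM in treated samples) and lowest in mature dendritic cells (16.2 ± 2.45 CPM and 3.87 ± 2.6 CPM). Among the 11 immune types of the treated samples, mature dendritic cells had the highest mean of Cd274, Pdcd1lg2, Cd80, Pvr and Nectin2, while Cd86 had its highest mean in conventional dendritic cells of type 2 (cDC2; 226 ± 46.1 CPM), followed by C1q macrophages (208 ± 33.6 CPM) and mature dendritic cells (161 ± 49.4 CPM). The treated samples of these 3 types overlapped for Cd86. This ordering is a description of the levels, with no test.

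**Figure D1:**
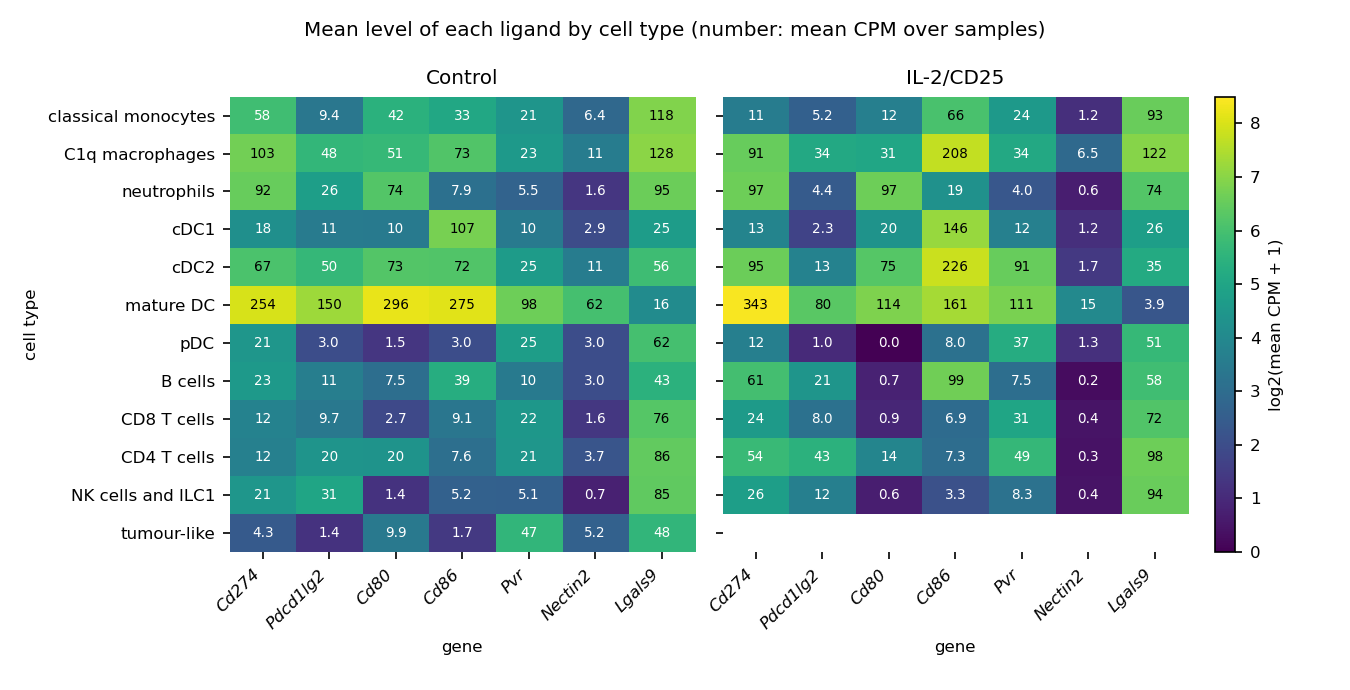
Mean CPM of the 7 ligands (columns) by cell type (rows) in the 3 Control samples and the 4 IL-2/CD25 samples; colour is log2(mean CPM + 1), to be read down a column, and tumour-like cells are blank on the right because the treated samples held 5 such cells. The mature dendritic cell row is brightest for Cd274 in both panels and dark for Lgals9.

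Levels in tumour-like control cells were also computed with the estimated free RNA of each library subtracted. Pvr in tumour-like cells was 46.9, 46.7 and 47.6 CPM in the 3 controls, and the mean was 50.6 ± 0.512 CPM after subtraction. Lgals9 there was 48.3, 50.6 and 44.2 CPM, and 39.7 ± 1.58 CPM after subtraction. Nectin2 moved little, from 5.19 ± 0.656 CPM to 4.72 ± 0.577 CPM, whereas Cd80 went from 9.86 ± 1.95 CPM to 3.66 ± 1.51 CPM. The levels of Cd274 (4.34 ± 0.921 CPM), Pdcd1lg2 (1.38 ± 0.485 CPM) and Cd86 (1.65 ± 0.602 CPM) all came to 0 after subtraction, so these values were not distinguishable from free RNA. With each cell thinned to 1000 UMIs, 0.685% ± 0.355 of tumour-like cells held a Cd274 UMI (17.1% unthinned, at a median of 39708 UMIs per cell), against 5.7% ± 0.638 of classical monocytes (37.5% unthinned, median 10728).

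Within cell types, edgeR's quasi-likelihood test on UMI sums per sample, with Benjamini-Hochberg adjustment over all genes tested, gave calls (adjusted p under 0.05) for members in 12 of 13 types. The share of all tested genes called was large in most types, and the member counts must be read against it. Among myeloid cells, 4 of 6 tested ligands were called in monocytes and macrophages together (background 55.0%), 3 of 5 in classical monocytes (Ly6c2, Ccr2; 52.5%), 1 of 6 in C1q macrophages (49.1%) and 3 of 5 in neutrophils (56.2%). Among dendritic cells, 2 of 4 were called in type 1 conventional cells (cDC1; 38.7%), 5 of 6 in cDC2 (45.7%), 4 of 6 in mature dendritic cells (20.9%) and 0 of 3 in plasmacytoid dendritic cells (5.62%), where edgeR also gave 0 at an unadjusted p under 0.05 and DESeq2 called 0 of 6. Among lymphocytes, 2 of 5 were called in B cells (22.3%), 3 of 6 in T cells (47.7%), 2 of 5 in CD8 T cells (53.8%), 2 of 6 in CD4 T cells (9.86%) and 1 of 5 in NK cells and type 1 innate lymphoid cells (39.4%). The member shares are near the background in several types, among them monocytes, neutrophils and T cells. The 4 of 6 in mature dendritic cells include Nectin2, which passed the low-count filter there through its control counts (72 UMIs, against 19 in treated samples). DESeq2 called 2 of 7 members in that type, so no weight is put on this count. Other called members also passed the filter through a single group. These were Cd274 and Cd80 in classical monocytes and Pdcd1lg2 in neutrophils, through the controls. Cd86 in neutrophils, Cd80 in cDC1 and Cd274 in CD4 T cells passed through the treated samples. Their calls carry the same limit. Called and uncalled members are described by gene below. The edgeR log2 changes include a scaling between samples (TMM) that the printed CPM lack, so they can differ from the CPM in size and even sign. For example, mean Cd274 in neutrophils was 91.6 CPM in controls and 96.7 CPM in treated samples, with a log2 change of -0.21. Groups of types are nested: classical monocytes and C1q macrophages belong to the monocyte and macrophage class, and CD8 and CD4 T cells to the T cells.

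**Figure D2:**
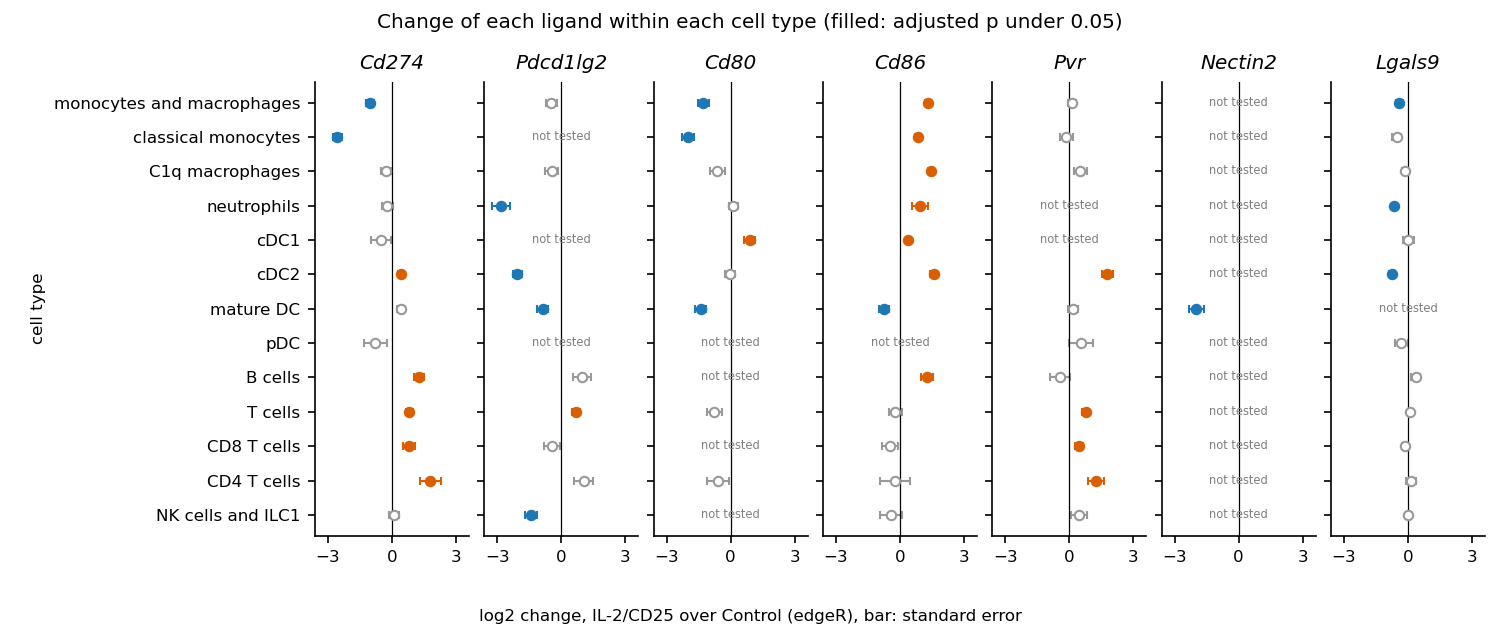
Log2 change of each ligand, IL-2/CD25 over Control, with its standard error (bars) in 13 cell types; filled points (orange higher, blue lower) have an edgeR adjusted p under 0.05. Cd86 is filled to the right in the monocyte, macrophage, neutrophil, cDC1, cDC2 and B cell rows and to the left in mature dendritic cells.

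Cd274, the gene of PD-L1, fell in classical monocytes and rose in cDC2, B cells and T cells. Classical monocytes held 60.8, 61.2 and 51.3 CPM in the 3 controls and 14.3, 13, 6.83 and 9.32 CPM in the 4 treated samples. The groups were far apart, and the change was -2.55 ± 0.21 on the log2 scale (SE; edgeR adjusted p = 1.1e-06), resting on 26 treated UMIs. Cd274 passed the low-count filter there through its control counts (1953 UMIs). In monocytes and macrophages together it fell by 1.04 ± 0.19 (edgeR adjusted p = 6.5e-04). C1q macrophages, the complement-producing macrophage subset, ranged from 84 to 130.0 CPM in controls and 71.2 to 127 CPM in treated samples, and the groups overlapped (-0.28 ± 0.22; edgeR adjusted p = 0.322). The same overlap was seen in neutrophils (-0.21 ± 0.24; 0.475). The marker content of the myeloid gates differed between groups: in classical monocytes the 5 classical monocyte markers summed to 9317 to 11250.0 CPM in controls and 6522 to 7001 CPM in treated samples. There the 6 T cell markers summed to 4.2 to 11.1 CPM and 83.5 to 168 CPM, the 6 NK markers to 3.69 to 4.8 CPM and 173 to 239.6 CPM. The 7 plasmacytoid markers summed to 24.4 to 38.9 CPM and 203 to 449 CPM, and the 6 tumour-like markers to 128 to 389 CPM and 1.03 to 14.3 CPM. Of these markers, only 2 tumour-like ones were at 0 in all treated samples, and the part of these differences in the monocyte results was not tested.

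In lymphocytes Cd274 was higher in the treated samples. B cells held 27.3, 21.4 and 20.9 CPM in the controls and 69.9, 55.4, 64.1 and 55.4 CPM in the treated samples, with every treated sample above every control (1.28 ± 0.24; edgeR adjusted p = 4.4e-04). T cells went from 20.8, 22.1 and 17.5 to 42.2, 38.7, 43.6 and 30.3 CPM, again without overlap (0.81 ± 0.18; 0.00291). CD8 T cells ranged from 11.9 to 13.5 CPM in controls and 16 to 30.6 CPM in treated samples (0.78 ± 0.28; edgeR adjusted p = 0.0297), a call that was lost without control 1, 2 or 3 or treated sample 1 or 3 (0.0504 to 0.0935). DESeq2 did not call this rise (adjusted p = 0.0508). In CD4 T cells Cd274 stood at 23.3, 5.53 and 7.18 CPM against 71.5, 44.2, 57.5 and 41.2 CPM, resting on 9 control UMIs (1.80 ± 0.47; edgeR adjusted p = 0.0256); without control 2 the adjusted p was 0.0943, and without control 3 it was 0.0937. There the gene passed the low-count filter through its treated counts. Regulatory T cells, gated in 20 or more cells per sample only in the treated group, held 72.2, 62.2, 94.7 and 44 CPM there. NK cells and type 1 innate lymphoid cells showed a difference of 0.10 ± 0.25 (edgeR adjusted p = 0.784).

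Among dendritic cells, Cd274 in cDC2 was 68, 69.2 and 62.7 CPM in controls and 93.7, 90.0, 119 and 76.6 CPM in treated samples. Every treated sample lay above every control, and the rise was 0.41 ± 0.14 (edgeR adjusted p = 0.022); it was no longer called without control 1, control 3 or treated sample 3 (0.0677 to 0.0887) or by DESeq2 (0.0915). The marker content of the cDC2 gate also differed between groups. The 8 neutrophil markers summed to 1129 to 1900.0 CPM in controls and 243 to 491.5 CPM in treated samples, the 5 classical monocyte markers to 846 to 983 CPM and 308 to 504 CPM, and the 6 tumour-like markers to 136 to 401 CPM and 23.6 to 43.2 CPM. The T cell markers went the other way (5.06 to 12.1 CPM and 69.9 to 107 CPM), as did the NK markers (10.1 to 12.9 CPM and 85 to 153 CPM) and the cDC2 marker Cd209a (176 and 713 CPM, pooled). Their part in the cDC2 values of the ligands was not tested. In mature dendritic cells, the cells with the highest Cd274, the treated samples were spread over 257 to 416 CPM and overlapped the controls (0.42 ± 0.21; edgeR adjusted p = 0.16). In cDC1, the cross-presenting dendritic cells, 1 treated sample had no Cd274 UMI and the others held 12 to 22.8 CPM (-0.52 ± 0.45; 0.386).

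Pdcd1lg2, the neighbouring gene of the other PD-1 ligand, was called lower by edgeR in cDC2, mature dendritic cells, neutrophils and NK cells, and higher in T cells. In cDC2 it was 43.4, 55.7 and 50.4 CPM in controls and 13, 10.3, 10.3 and 17 CPM in treated samples. The lowest control lay well above the highest treated sample, and the change was -2.06 ± 0.20 (log2, SE; edgeR adjusted p = 4.5e-07). Mature dendritic cells held 132, 151 and 167 CPM in controls and 112, 87.1, 71.9 and 48.2 CPM in treated samples (-0.87 ± 0.25; edgeR adjusted p = 0.0189), with no overlap; without control 3 the adjusted p was 0.0932. The edgeR call was also lost with the replicate block (0.066) and after thinning to equal sums (0.0973). DESeq2 did not call it (adjusted p = 0.101). Neutrophils fell from 25.5, 34.5 and 18.5 to 9.09, 2.58, 1.37 and 4.58 CPM, on 13 treated UMIs (-2.83 ± 0.41; edgeR adjusted p = 9.0e-05). The gene passed the low-count filter through its control counts (366 UMIs) in neutrophils. Their own 8 marker genes summed to 223700.0 to 244800.0 CPM in controls and 130800.0 to 160100.0 CPM in treated samples, and the 5 classical monocyte markers to 5475 to 6530.0 CPM and 243 to 1626 CPM; their part in the neutrophil values was not tested.

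NK cells and type 1 innate lymphoid cells held Pdcd1lg2 at 31.2, 28.8 and 32.1 CPM in controls and 15.7, 9.56, 8.77 and 12.6 CPM in treated samples, a fall without overlap (-1.44 ± 0.28; edgeR adjusted p = 0.00105). T cells went the other way, from 16.9, 24.8 and 12.1 to 31.4, 31.9, 29.7 and 28.8 CPM (0.69 ± 0.17; edgeR adjusted p = 0.006). The rise was not called within CD4 T cells (1.05 ± 0.44; 0.154) or CD8 T cells (-0.45 ± 0.38; 0.345), so the makeup of the T cell class and the level within its subsets cannot be told apart here. CD4 and CD8 T cells made up 1237 and 3038 of the 10537 treated T cells, and 130 and 368 of the 810 control ones. The T cells outside both subsets were not tested on their own. C1q macrophages overlapped between groups (-0.44 ± 0.30; edgeR adjusted p = 0.243). cDC1 went from 134 control UMIs to 6 treated UMIs, 10.7 ± 3.22 CPM and 2.31 ± 3.62 CPM, below the count filter for testing, as in classical monocytes and plasmacytoid dendritic cells.

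**Figure D3:**
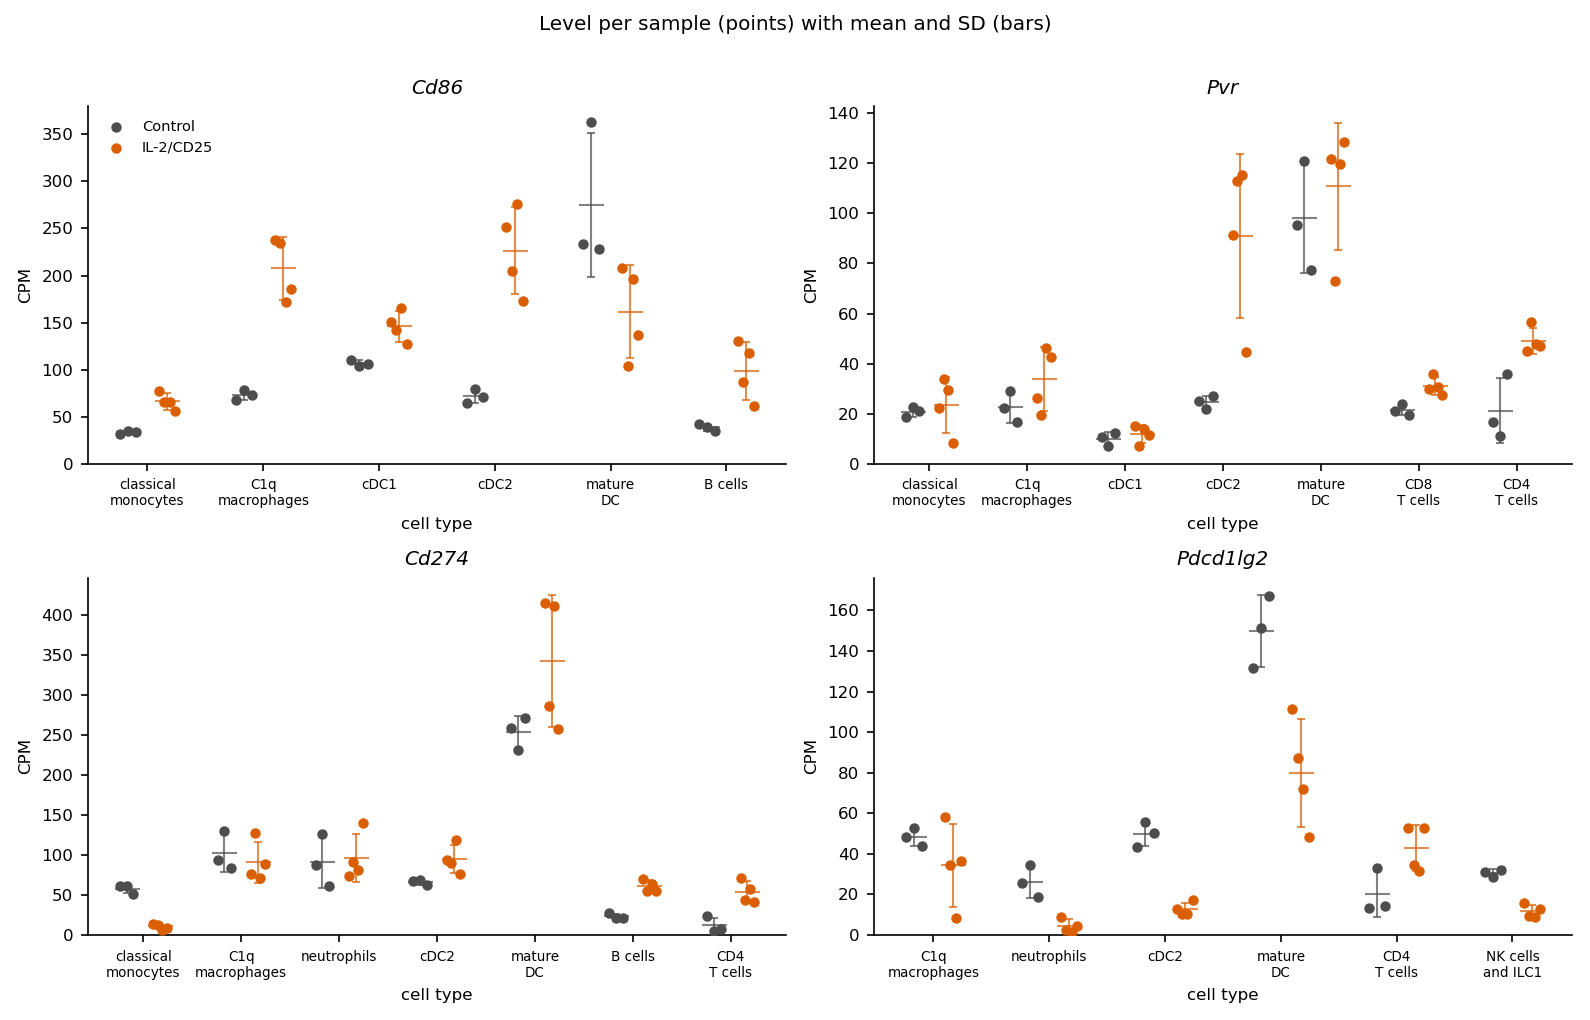
CPM in each sample (points) with the group mean and SD (bars) for Cd86, Pvr, Cd274 and Pdcd1lg2 in selected cell types, Control in grey and IL-2/CD25 in orange; each axis starts at 0. In cDC2, Cd86, Pvr and Cd274 lie higher in all 4 treated samples and Pdcd1lg2 lies lower.

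Cd86, a B7 ligand of CD28 and CTLA-4, was called higher by edgeR in most antigen-presenting cells and lower in mature dendritic cells. In cDC2 it was 64.7, 79.3 and 70.9 CPM in the controls and 252, 205, 276 and 173 CPM in the treated samples. All treated samples were well above every control, and the rise was 1.57 ± 0.15 on the log2 scale (SE; edgeR adjusted p = 3.8e-07). C1q macrophages held 68, 77.9 and 72.8 CPM in controls and 238, 235, 172 and 186 CPM in treated samples, again far apart (1.45 ± 0.16; edgeR adjusted p = 7.9e-06). In these macrophages the 5 Kupffer-like markers (Clec4f, Vsig4, Timd4, Cd5l and Marco, genes of the resident liver macrophage) summed to 12 to 67.9 CPM in controls and 907 to 2791 CPM in treated samples, so the marker content of this gate differed between groups; its part in the Cd86 value was not tested. Classical monocytes rose from 31.8, 34.7 and 33.8 to 77.8, 65.2, 66 and 55.9 CPM (0.84 ± 0.14; edgeR adjusted p = 3.1e-04).

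B cells, which also use CD86 to engage T cells, held 42.2, 39.1 and 34.2 CPM in controls and 130.2, 86.6, 117 and 61.6 CPM in treated samples. All treated samples were higher (1.27 ± 0.30; edgeR adjusted p = 0.00363), but without control 3 the adjusted p was 0.0573. cDC1, which had the highest control Cd86 after mature dendritic cells, rose from 109.9, 104 and 106 to 151, 142, 166 and 127 CPM (0.39 ± 0.12; edgeR adjusted p = 0.0187); the call was lost without control 1, control 2 or treated sample 3 (0.0551 to 0.0695). In neutrophils the groups overlapped, 7.69, 10.9 and 5.00 against 18.2, 19.4, 8.21 and 29 CPM (0.95 ± 0.36; edgeR adjusted p = 0.0429), and leaving out control 1 or 3 or treated sample 1, 2 or 4 ended the call (0.0651 to 0.133). DESeq2 did not call Cd86 there (adjusted p = 0.0612). Mature dendritic cells showed the opposite sign, 234, 363 and 228 CPM in controls and 208, 104, 197 and 137 CPM in treated samples. The highest control stood apart from all others, the lower controls lay close to the highest treated sample, and the change was -0.76 ± 0.24 (edgeR adjusted p = 0.0304). Without control 2, treated sample 2 or treated sample 4 it was not called (0.0683 to 0.148), nor was it by DESeq2 (adjusted p = 0.0996). After thinning to 1000 UMIs per cell, the share of cells with a Cd86 UMI was 7.36% ± 1.81 of control and 16.2% ± 5.55 of treated cDC2 (unthinned 40.4% and 59.5%), and 7.12% ± 0.607 and 22.4% ± 8.06 of C1q macrophages (unthinned 44.4% and 57.1%). In mature dendritic cells, where the level fell, the share at 1000 UMIs was 12.1% ± 6.88 in controls and 17.5% ± 9.35 in treated samples. Thinned to 2000 UMIs it was 35.9% ± 2.66 and 20.5% ± 15.8, and unthinned it was 66% and 58.4%. The direction of this share depended on the depth used, and none is read from it. At 1000 UMIs per cell the share was 0.741% ± 1.28 and 0.308% ± 0.0851 in NK cells and type 1 innate lymphoid cells. They served as the comparison with little of the gene (unthinned 2.56% and 1.15%, median UMIs 4661 and 3560.0 against 10426 and 9289 in cDC2). Thinning left out 2 and 149 of these NK cells as too shallow.

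Cd80, the other B7 ligand, was called lower by edgeR in classical monocytes and mature dendritic cells and higher in cDC1. In classical monocytes it was 35.1, 48.5 and 43.1 CPM in controls and 7.93, 18.3, 6.83 and 13.5 CPM in treated samples. No samples overlapped, and the change was -1.99 ± 0.27 (log2, SE; edgeR adjusted p = 5.6e-05), so in this gate the CPM was lower for Cd80 and higher for Cd86 in treated samples. Cd80 passed the low-count filter there through its control counts. Mature dendritic cells fell from 272, 414 and 201 to 114, 73.1, 173 and 96.5 CPM, also without overlap (-1.39 ± 0.26; edgeR adjusted p = 0.00114). cDC1 held 12.2, 9.28 and 9.87 CPM in controls and 22.8, 24.1, 12 and 19.5 CPM in treated samples (0.89 ± 0.27; edgeR adjusted p = 0.0163). One treated cDC1 sample fell within the range of the controls, and the call was lost without control 2, treated sample 1 or treated sample 2 (0.0589 to 0.0838). The edgeR call was also lost with the replicate block (0.0513), doublets kept (0.062) or ungated cells assigned (0.0719). The share of cDC1 with a Cd80 UMI went the other way at 1000 UMIs per cell, 2.06% ± 0.77 in controls and 1.625% ± 1.97 in treated samples. That rests on 17 and 3 cells. At 2000 UMIs it was 2.83% and 1.14%, and unthinned 11% and 17.6%.

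The Cd80 calls did not extend to cDC2 or neutrophils. cDC2 varied widely among treated samples, 99.5, 51.7, 112 and 36.9 CPM around a control mean of 73.2 ± 4.26 CPM (-0.03 ± 0.24; edgeR adjusted p = 0.925). Neutrophils overlapped (0.12 ± 0.21; 0.66). In C1q macrophages treated sample 1 had 66 CPM, above all controls, and the other treated samples 24.5, 16.8 and 18.3 CPM, below all controls. With all 7 samples the change was -0.62 ± 0.35 (edgeR adjusted p = 0.156), and without treated sample 1 it was -1.47 with an adjusted p of 0.0043. In B cells, which can carry CD80 once activated, there were 8 control and 8 treated UMIs, too few to test, and plasmacytoid dendritic cells of the treated samples held none.

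In mature dendritic cells the joint detection of ligands was also counted. Both Cd80 and Cd86 had a UMI in 50.7% ± 6.04 of control and 31.9% ± 16.7 of treated mature dendritic cells, next to products of the single shares of 47.3% and 28%. The treated samples differed widely from each other; 129 control and 119 treated cells entered, at median depths of 8153 and 9555 UMIs. Cd274 and Pdcd1lg2 were found together in 14.9% ± 2.35 of control cDC2 and 5.85% ± 3.06 of treated cDC2, and Cd274 and Cd86 together in 16.4% ± 3.65 and 25.7% ± 6.13. These shares are unthinned and are given without a test. The 7 defining markers of mature dendritic cells summed to 7243 to 8235 CPM in controls and 8772 to 9402 CPM in treated samples. In the same gate the T cell markers summed to 2.42 to 9.08 CPM and 12.7 to 281.5 CPM, and the NK markers to 4.84 to 11.3 CPM and 50.7 to 201 CPM. Lower in the treated samples were the classical monocyte markers (298 to 1126 CPM and 17.8 to 345 CPM), the neutrophil markers (952 to 1457 CPM and 76.7 to 655 CPM) and the tumour-like markers (151 to 385 CPM and 20.3 to 48.2 CPM). The part of these differences in the falls of Cd80, Cd86, Pdcd1lg2 and Nectin2 was not tested.

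Pvr, the gene of CD155, rose in cDC2 and T cells. In cDC2 it was 25, 21.9 and 27 CPM in controls and 91.5, 113, 115 and 44.4 CPM in treated samples. The lowest treated sample exceeded the highest control, and the rise was 1.78 ± 0.24 (log2, SE; edgeR adjusted p = 1.4e-05). The share of cDC2 with a Pvr UMI at 1000 UMIs per cell was 3.12% ± 1.75 in controls and 7.54% ± 1.55 in treated samples (unthinned 19.3% and 36.8%). T cells held 19.96, 21.2 and 23.6 CPM in controls and 38.3, 46.2, 44.1 and 32.3 CPM in treated samples (0.77 ± 0.17; edgeR adjusted p = 0.0033), with no overlap. CD8 T cells rose by 0.45 ± 0.18 (edgeR adjusted p = 0.0462), a call lost without control 1 or 3 or treated sample 1, 2 or 3 (0.0556 to 0.142). CD4 T cells rose by 1.24 ± 0.36 (0.0432), lost without any one of control 1, control 2 or the 4 treated samples (0.0524 to 0.239). DESeq2 called neither the CD8 nor the CD4 T cell rise (adjusted p = 0.119 and 0.075). Mature dendritic cells kept a high level in both groups, 95.3, 121 and 77.5 CPM and 122, 73.1, 119.8 and 129 CPM, and the groups overlapped (0.17 ± 0.24; edgeR adjusted p = 0.658). The change was not called in C1q macrophages (0.52 ± 0.32), classical monocytes (-0.14 ± 0.31) or NK cells and type 1 innate lymphoid cells (0.44 ± 0.36), with edgeR adjusted p-values of 0.2, 0.731 and 0.419.

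Nectin2, the gene of CD112, was sparse and fell in mature dendritic cells, the one gated type where it passed the count filter. There it was 59, 57.2 and 70.2 CPM in controls and 22.8, 11.2, 14.4 and 12.1 CPM in treated samples. No treated sample reached the lowest control, and the change was -1.98 ± 0.35 (log2, SE; edgeR adjusted p = 6.3e-04), resting on 72 control and 19 treated UMIs. At 1000 UMIs per cell the share of mature dendritic cells with a Nectin2 UMI was 8.35% ± 3.62 and 0.781% ± 1.56 (unthinned 34.9% and 10.3%). In monocytes and macrophages, untested for lack of counts, it was 7.45, 7.35 and 7.74 CPM in controls and 3.73, 3.26, 2.83 and 3.7 CPM in treated samples, from 357 and 13 UMIs. In cDC2 there were 71 control and 7 treated UMIs. The highest Nectin2 levels of the treated samples were outside the immune cells: keratin-positive cells without Cdkn2a, whose pooled treated cells held 638 CPM of Epcam, 2371 of Krt19 and 3.93 of Myc, carried 175 and 162 CPM in treated samples 1 and 3 (39 and 48 cells), and endothelial cells of treated samples 2 and 3 carried 140.2 and 72 CPM.

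Lgals9, the gene of galectin-9, changed in 3 of the tested types, and each time downward. In neutrophils it was 93.1, 103 and 88.3 CPM in controls and 72.7, 71, 76.7 and 74.8 CPM in treated samples. The groups did not overlap, and the change was -0.65 ± 0.11 (log2, SE; edgeR adjusted p = 4.0e-04). In cDC2 it fell from 51.8, 61.3 and 56.3 to 40.4, 32.1, 37 and 32.1 CPM (-0.75 ± 0.15; edgeR adjusted p = 5.2e-04). Monocytes and macrophages overlapped, 108, 147 and 101 CPM against 83, 106, 123 and 89.6 CPM, with a change of -0.42 ± 0.16 (edgeR adjusted p = 0.0478) that was not called without control 2 or treated sample 1, 2 or 4 (0.0657 to 0.172). Among lymphocytes the change was 0.37 ± 0.21 in B cells, 0.07 ± 0.09 in T cells and 0.01 ± 0.12 in NK cells and type 1 innate lymphoid cells (edgeR adjusted p = 0.225, 0.541 and 0.972). Mature dendritic cells had 19 control and 5 treated UMIs, untested. Hepatocyte-like cells, gated in treated samples 2 and 3, held 646 and 628 CPM of Lgals9, the highest of any gated type there.

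Over all kept cells, 2 of the 7 ligands were called (background 69.6%), Cd80 (32.8, 42.5 and 18.2 CPM to 15.2, 9.41, 10.9 and 7.4 CPM, -1.94 ± 0.31, edgeR adjusted p = 9.8e-04) and Pvr (28.1, 27.4 and 40.2 CPM to 28.6, 27.4, 29.2 and 19.5 CPM, -0.74 ± 0.22, 0.0189). For Pvr the CPM of the groups overlapped. Without control 3, the sample with the most tumour-like cells, Cd274 (-0.76, adjusted p = 0.0022) and Lgals9 (-0.38, 0.023) were called as lower as well. Sums over a sample mix the level within a cell type with the number of its cells, which cannot be told apart in them. With 11 immune cell types weighted equally, mean Cd86 was 57.4 ± 7.8 CPM in controls and 86.4 ± 12.7 CPM in treated samples, where all kept cells gave 24.2 ± 11 CPM and 31.5 ± 7.64 CPM. Pvr on the same weighting was 24.1 ± 2.61 CPM and 37.1 ± 4.56 CPM, where all kept cells gave 31.9 ± 7.21 CPM and 26.2 ± 4.5 CPM, so its direction differed between the weightings.

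The cells that held each ligand's UMIs differed between groups along with the cell numbers. Tumour-like cells numbered 3065 in controls and 5 in treated samples, monocytes and macrophages 4137 and 485, T cells 810 and 10537, B cells 529 and 3685, and NK cells and type 1 innate lymphoid cells 367 and 11533. Tumour-like cells held 74.1% of all control Pvr UMIs (8067 of 10891, 45.9 to 87.8% per sample), and T cells 48.5% of the treated ones. For Cd274 the largest named class was monocytes and macrophages in controls (29.9%) and T cells in treated samples (29.1%). The same classes held 25.9% and 49.3% of the Pdcd1lg2 UMIs. In every sample of the group these Pvr, Cd274 and Pdcd1lg2 classes were the largest named ones. Cells outside the main classes were mostly those below every gate or with markers of 2 types. In controls they held 42.1% of Cd274 and 36.1% of Pdcd1lg2 UMIs, more than monocytes and macrophages. In treated samples they held 18.9% and 16.05%. Control cells below every gate had 140.3, 137.6 and 86.86 CPM of Cd274. The control shares therefore do not name a main source of these 2 ligands.

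For the other ligands the leading named class varied between samples. Cells outside the main classes held 34.3% of control Cd80 and 31.4% of control Cd86 UMIs. Cd80 UMIs in monocytes and macrophages were 25.8, 31.5 and 16.9% of the total in the 3 controls, and tumour-like cells held 9.02, 7.67 and 36.3%, leading in control 3 alone. In the treated samples cDC2 held 26.1, 16.3, 34.4 and 12.9% of Cd80 and neutrophils 21.2, 23.1, 15.3 and 15.2%. In treated sample 4 T cells held more than either, 60 of its 303 Cd80 UMIs. With their types pooled, dendritic cells held 35.5% of all treated Cd80 UMIs. With dendritic cells split by type, control Cd86 UMIs were led by monocytes and macrophages (31.3, 33.7 and 25.8%), followed by cDC1 (18.7, 20.4 and 21.5%). With their types pooled, dendritic cells held 31.5% of all control Cd86 UMIs, and monocytes and macrophages 30.5%. The treated Cd86 UMIs lay in cDC2 (28, 18.1, 25.2 and 22.1%) and B cells (14.2, 30.8, 33.7 and 12%), with cDC2 ahead in samples 1 and 4 and B cells ahead in samples 2 and 3. Pooled dendritic cells held 36.9% of all treated Cd86 UMIs, and B cells 23.5%. Tumour-like cells held 22.9, 14.1 and 61.7% of control Lgals9 UMIs against 32.3, 39.2 and 13.3% in monocytes and macrophages, so the pooled tumour-like share of 36% was led by control 3. Treated Lgals9 UMIs were spread about evenly over NK cells with type 1 innate lymphoid cells (33.5, 30.5, 30.5 and 38.4%) and T cells (33.9, 31.5, 29.6 and 35.8%). For Nectin2 the tumour-like share was 26.5, 21.2 and 65.4% in the controls, above monocytes and macrophages (26.9, 29.95 and 8.1%) in control 3 alone, and in the treated samples keratin-positive cells without Cdkn2a held 74.9, 0, 67 and 12.1%, a share set by samples 1 and 3. These shares follow from cell number, RNA per cell and level together.

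**Figure D4:**
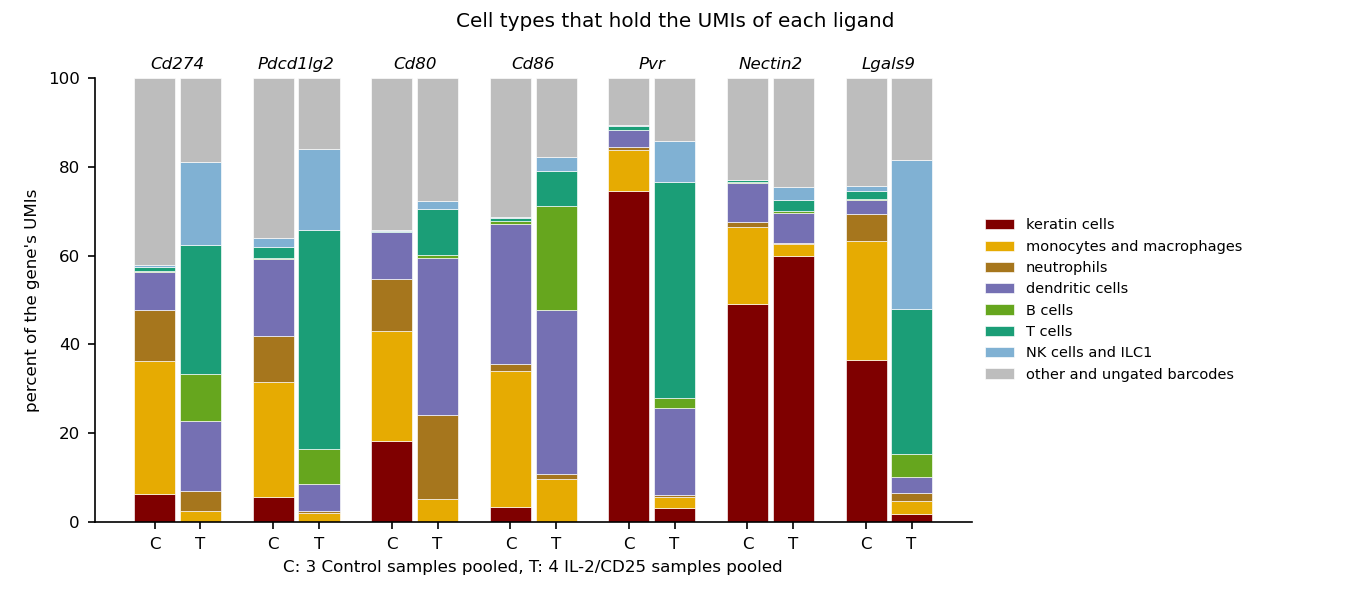
Percent of each ligand's UMIs (vertical axis) held by each class of cells, with the 3 Control samples pooled (C) and the 4 IL-2/CD25 samples pooled (T); keratin cells are tumour-like cells plus keratin-positive cells without Cdkn2a. Keratin cells fill most of the control Pvr bar, and T cells are the largest named part of the treated Pvr, Cd274 and Pdcd1lg2 bars.

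Whether a ligand's change differed between myeloid cell types was tested directly with limma on the per-sample difference of log2(CPM + 1) between a pair of types, in 4 pairs, with adjustment over all genes within each pair. Between cDC1 and cDC2, 2 members were called (background 6.05%): relative to cDC2, cDC1 changed by -1.18 ± 0.14 for Cd86 (treated minus control of the log2 difference, SE; limma adjusted p = 3.6e-04) and by -1.55 ± 0.40 for Pvr (0.0358). Cd86 and Pvr thus rose more in cDC2 than they changed in cDC1. The Pvr call was lost without any single sample other than treated sample 4 (0.0501 to 0.153). Pvr was below the count filter in cDC1 (123 control and 29 treated UMIs) and was tested because it passed in cDC2. Between cDC2 and monocytes and macrophages, 3 were called (background 10.5%): Pvr (1.47 ± 0.24; limma adjusted p = 0.00157), Cd274 (1.35 ± 0.25; 0.00359) and Pdcd1lg2 (-1.45 ± 0.34; 0.0147), the last not called without control 2 or control 3 (0.0922 and 0.0838). Between cDC1 and monocytes and macrophages, 3 were called (background 13.5%): Cd80 (2.02 ± 0.31; limma adjusted p = 0.00185), Cd86 (-0.96 ± 0.16; 0.00243) and Pdcd1lg2 (-1.92 ± 0.53; 0.0372), the last lost without any single sample other than treated sample 1 (0.053 to 0.192). That Pdcd1lg2 value rests on 6 treated UMIs in cDC1, where the gene was below the count filter. It was tested because it passed the filter in monocytes and macrophages. Its limma call was also lost with a pseudocount of 5 (0.0555), without the filter on low values (0.14) and with the replicate block (0.0557). Between monocytes and macrophages and neutrophils, 2 were called (background 23.3%): Cd80 (-1.56 ± 0.20; limma adjusted p = 4.1e-04) and Pdcd1lg2 (2.03 ± 0.36; 0.00243). Cd80 thus fell in monocytes and macrophages relative to both neutrophils and cDC1. The pairs share samples and cell types and are not independent of each other.

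Genes of the pathways around these ligands were counted from lists chosen with earlier results of these data known. Of 8 genes of the CD40 and NF-kB pathway, which relays signals from T cell help to antigen-presenting cells, 8 of 8 tested rose in cDC2, where 45.7% of all genes were called in either direction (median log2 change 1.16, against 0.01 over all genes tested there). The rises with the lowest adjusted p were the survival gene Birc3 (1.66 ± 0.12; edgeR adjusted p = 9.5e-09), the NF-kB subunit Rel (1.38 ± 0.15), the adaptor Traf1 (1.07 ± 0.12) and the feedback inhibitor Tnfaip3 (2.23 ± 0.27). In classical monocytes (52.5% of all genes called) 7 rose and 1 fell of 8 (median 1.59 against 0.01), led by Traf1 (2.98 ± 0.27), Birc3 (1.45 ± 0.14), Rel (1.53 ± 0.15) and Nfkb2 (1.68 ± 0.17). In the sentences that follow, the percent in brackets is the share of all genes called in that type. Neutrophils had 7 higher and 0 lower of 8 (56.2%; median 1.10), cDC1 6 and 0 (38.7%; 0.67) and mature dendritic cells 5 and 1 (20.9%; 0.58). CD8 T cells had 6 and 0 (53.8%; median 0.60), CD4 T cells 4 and 0 (9.86%; 0.89) and NK cells with type 1 innate lymphoid cells 1 and 1 (39.4%; 0.0011). B cells had 1 and 2 (22.3%; median 0.23) and plasmacytoid dendritic cells 1 and 0 (5.62%; 0.61). In mature dendritic cells Birc3 rose by 1.46 ± 0.19, Relb by 0.85 ± 0.17 and Traf1 by 0.61 ± 0.15, and Nfkb1 fell by 1.29 ± 0.20 (edgeR adjusted p = 5.1e-05, 0.00199, 0.0076 and 1.8e-04).

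Of 14 genes of the interferon gamma pathway and of PD-L1 stability, 10 rose and 0 fell of 13 tested in classical monocytes (52.5% of all genes called; median 1.28 against 0.01 over all genes), the cells in which Cd274 fell. Among them were the transcription factor Irf1 (2.00 ± 0.15; edgeR adjusted p = 4.4e-07) and the receptor chains Ifngr2 (1.28 ± 0.12) and Ifngr1 (0.97 ± 0.10). In cDC2 8 rose and 0 fell of 13 (45.7% called; median 0.37 against 0.01), among them Irf1 (1.65 ± 0.15), Ifngr2 (0.99 ± 0.13) and the MHC class II activator Ciita (0.55 ± 0.10). Neutrophils had 7 higher and 1 lower of 11 (56.2% of all genes called; median 1.14), C1q macrophages 7 and 1 of 12 (49.1%; 0.72) and cDC1 6 and 1 of 11 (38.7%; 0.52). B cells had 5 and 0 of 11 (22.3%; median 0.34), CD8 T cells 6 and 2 of 12 (53.8%; 0.48), CD4 T cells 2 and 1 of 12 (9.86%; 0.33), NK cells with type 1 innate lymphoid cells 6 and 2 of 13 (39.4%; 0.20) and plasmacytoid dendritic cells 0 and 0 of 9 (5.62%; 0.12). Mature dendritic cells had 2 higher and 1 lower of 11 (20.9%; median 0.09), among them Irf1 (1.42 ± 0.22; edgeR adjusted p = 1.8e-04), which rose, and Cmtm6 (-0.81 ± 0.23; 0.0166), whose protein stabilises PD-L1 at the cell surface, fell. In several types, among them CD8 T cells, mature dendritic cells, cDC2, neutrophils and C1q macrophages, the share called was not far above that of all genes. The list was not tested against all genes in any type.

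Among the 8 receptors of the ligands, CD8 T cells had 1 higher and 4 lower of 7 tested (53.8% of all genes called; median -1.17 against 0.03 over all genes). Pdcd1, the receptor of both PD-1 ligands, went from 72.9 ± 23.3 CPM to 4.26 ± 3.14 CPM there (-4.10 ± 0.34; edgeR adjusted p = 2.0e-07). Havcr2 (-2.97 ± 0.52; 2.2e-04) and Ctla4 (-1.17 ± 0.29; 0.0031) also fell in CD8 T cells, and Cd28 rose (1.02 ± 0.14; 3.4e-05). CD4 T cells showed the opposite direction for Ctla4, which rose from 192 ± 56.8 CPM to 806 ± 296 CPM (2.04 ± 0.31; edgeR adjusted p = 0.00105), and Cd28 rose as well (0.78 ± 0.18; 0.0141), 2 higher and 0 lower of 7 (9.86% of all genes called); the difference between CD8 and CD4 T cells was not tested. NK cells and type 1 innate lymphoid cells had 1 higher and 3 lower of 7 (39.4%). Receptors were also called higher in several myeloid gates. In cDC2 3 of 3 tested rose (45.7%), in cDC1 1 of 2 (38.7%) and in plasmacytoid dendritic cells 1 of 1 (5.62%), against 0 of 1 in C1q macrophages (49.1%). In classical monocytes (52.5%) 3 of 4 tested receptors rose, and all 3 are T or NK cell genes: Cd226 from 0.200 ± 0.0621 CPM to 28.7 ± 7.16 CPM (6.79 ± 0.42; edgeR adjusted p = 8.0e-08), Cd28 (6.05 ± 0.44) and Ctla4 (5.43 ± 0.60), beside the T and NK marker sums given above for this gate.

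A list of 16 other genes held ligands of the B7, nectin, TNF and galectin families. It also held Cd40, a receptor, and Ceacam1, which are not ligands of these families. Of this list, cDC2 had 3 higher and 1 lower of 7 tested (45.7% of all genes called, median 0.39 against 0.01). Tnfsf9, the ligand of the costimulatory receptor CD137, rose there from 28 ± 2.26 CPM to 135 ± 31.5 CPM (2.18 ± 0.18; edgeR adjusted p = 5.8e-08), Nectin1 rose by 0.87 ± 0.14 (7.1e-05) and the galectin Lgals3 fell by 1.55 ± 0.14 (1.9e-07). Classical monocytes had 3 higher and 1 lower of 7 (52.5%), with Cd40 (3.61 ± 0.47; edgeR adjusted p = 4.2e-05), the receptor of T cell help, Nectin1 (3.23 ± 0.36; 1.0e-05) and Ceacam1 (1.19 ± 0.16; 4.9e-05) higher and Lgals3 lower (-0.66 ± 0.12; 4.3e-04). In mature dendritic cells 2 of 7 tested genes of this list rose and 0 fell (20.9% of all genes called). The 2 were the ICOS ligand gene Icosl (1.01 ± 0.21, edgeR adjusted p = 0.0028) and Nectin1 (0.85 ± 0.23, 0.0126).

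Across 12 cell types and 10578 genes, the genes whose mean log2(CPM + 1) most resembled each ligand were named by Pearson correlation, as a description over types that share libraries. For Cd274 they were Nup98 (0.922), Stard7 (0.903) and Gadd45b (0.896), and for Pdcd1lg2 Gbp2 (0.907), Cd274 itself (0.88) and Arhgap31 (0.861). For Cd80 they were Marcksl1 (0.925), Adam8 (0.918) and Cask (0.874), and for Cd86 Cd83 (0.931), a marker of dendritic cell activation, Ifi30 (0.895) and Batf3 (0.891). Pvr was closest to Spr (0.873), Ass1 (0.858) and Phldb1 (0.854), and Nectin2 to Phldb1 (0.973), Loxl3 (0.955) and Dnah2 (0.953). Lgals9 was closest to Slc25a44 (0.958), Dgkz (0.912) and Alkbh5 (0.894). Among the members themselves, Cd274 and Pdcd1lg2 had a correlation of 0.88 and Pvr and Nectin2 of 0.769, and Lgals9 was negative with each of the other 6 (-0.221 to -0.603).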

How the data were processed

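Droplet single-cell libraries of 7 samples were deposited as raw UMI count matrices, made by the authors with Cell Ranger 7.0.0 per the submitters' processing notes; neither build nor annotation was given in the sources used here. Barcodes passed with 500 or more UMIs, 200 or more genes and no more than 20% of UMIs from mitochondrial genes (62304 of 62930 barcodes). Doublets, called per sample from 50 neighbours at 0.8% per 1000 barcodes, were removed (5.81 to 8.51%), leaving 57739 cells with sample medians of 5577 to 8197 UMIs in controls and 3129 to 4413 in treated samples. A cell took the type whose markers reached 25% of that list's reference level, with at least 2 markers detected and the next list at or under 50% of the first. Counts were summed per sample and type (at least 20 cells).

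Python 3.11.15 and R 4.3.3 were used. Sums were tested with edgeR 4.0.16 (quasi-likelihood, TMM scaling, low-count filter, adjusted over all genes tested), DESeq2 1.42.0 being an alternative. Differences between pairs of types were tested with limma 3.58.1 on log2(CPM + 1), which understates changes of low genes. The CPM of these pair tests, like the printed levels, had no TMM scaling. Free RNA was taken to be composed like the whole library, and its share in a cell type was read from the UMIs of foreign markers found there, to which doublets can add. Both fits were tested on simulated data. Alternatives were another scaling, DESeq2, no low-count filter, a replicate block, leaving out each sample, stricter cells and gates, doublets kept, thinning, free RNA subtracted and another pseudocount. All 7 genes are described, and at most 4 genes per list are named, those with the lowest adjusted p; 1 list gene is not reported here. Members and lists were chosen with earlier results of these data known. Tests of tumour-like cells between groups were not made, because the treated samples held 5 of them.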

Additional observations from a re-analysis of the deposited data

Results flagged for a closer look

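Of 69 groups of 4 treated samples with at least 20 UMIs of the gene, 3 had a sample far from the rest by Dixon's criterion, where chance flags about 1 in 20 groups. Treated sample 1 had 65.97 CPM of Cd80 in C1q macrophages, and the others 16.75 to 24.48 CPM. Treated sample 2 had 8.87 CPM of Cd86 in CD8 T cells, and the others 6.006 to 6.373 CPM. Treated sample 2 had 73.08 CPM of Pvr in mature dendritic cells, and the others 119.8 to 128.7 CPM.

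The change of a ligand differed between cell types in 10 of the tested combinations of member and pair (treated minus control of the log2 difference, limma with adjustment over all genes of the pair). For cDC1 against cDC2 the difference was -1.55 for Pvr (adjusted p = 0.0358) and -1.18 for Cd86 (3.6e-04). For cDC1 against monocytes and macrophages it was 2.02 for Cd80 (0.00185), -0.96 for Cd86 (0.00243) and -1.92 for Pdcd1lg2 (0.0372). The last rests on 6 treated cDC1 UMIs, below the count filter of that type. For cDC2 against monocytes and macrophages it was 1.47 for Pvr (0.00157), 1.35 for Cd274 (0.00359) and -1.45 for Pdcd1lg2 (0.0147). For monocytes and macrophages against neutrophils it was -1.56 for Cd80 (4.1e-04) and 2.03 for Pdcd1lg2 (0.00243).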

How the results depend on the processing

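No called change reversed its direction under any alternative. Outside the fits that left out a sample, 123 of 147 counts of called ligands stayed within 1.5 times the reported count, and 317 of 362 calls held with the same sign. Scaling by edgeR's RLE kept all 34 calls in cell types and moved the median gene by at most 0.0206. Without the low-count filter 6 ligands were called in classical monocytes (3 reported), 2 in C1q macrophages (1) and 1 in cDC1 (2); neither reported cDC1 call held there (edgeR adjusted p = 0.0582 for Cd80 and 0.243 for Cd86), and the call there was of another ligand. DESeq2 called 2 in mature dendritic cells (4), 1 in CD4 T cells (2) and 0 in CD8 T cells (2). With doublets kept there were 1 in cDC1 (2), 5 in T cells (3), 1 in CD4 T cells (2) and 4 in CD8 T cells (2). Stricter cell limits gave 1 in CD8 T cells (2). With free RNA subtracted 31 of 32 calls held, leaving 1 in CD4 T cells (2). Samples thinned to equal sums, a test of depth, gave 0 in cDC1 (2), 2 in mature dendritic cells (4) and 0 each in CD8 and CD4 T cells (2 each). Assigning ungated cells, an alternative chosen after seeing the data, gave 1 in cDC1 (2). Without the filter on low values the pair tests called 1 for cDC1 against cDC2 (2) and 1 for cDC2 against monocytes and macrophages (3). Leaving out 1 sample gave 3 to 5 in classical monocytes, 1 to 2 in C1q macrophages, 0 to 2 in cDC1, 0 to 2 among CD8 T cells, 0 to 1 among CD4 T cells, 2 to 4 over all kept cells and 1 to 2 for cDC1 against cDC2. Same-numbered samples did not deviate together (correlations from -0.289 to 0.318, 2 of 42 over 0.1), so the numbers were not taken as pairs; with the replicate number as a block there were 1 in cDC1 (2), 2 in mature dendritic cells (4), 1 each in CD8 and CD4 T cells (2 each) and 1 over all kept cells (2). Apart from what each alternative's construction changes, the cause of these shifts was not tested.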
